A study of Mus musculus with 20 samples.

Results

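The genes described here are the mouse proteasome genes: every gene whose symbol starts with Psma, Psmb, Psmc, Psmd, Psme, Psmf or Psmg followed by a digit, without the immunoproteasome genes Psmb8, Psmb9 and Psmb10. The rule found 47 of the 20660 gene symbols on the array. Of these, 45 are genes of the proteasome or its assembly, and 2 (Psmc3ip and Psme3ip1) are named for a partner and are not subunits. Of the 47, 45 genes were tested, and all 45 were well above background in all 20 samples. The other 2 were Psma8, the alpha subunit of testis proteasomes, well above background in 0 of 20 samples, and Psmb11, the beta subunit of the thymus, well above background in 2 of 20.

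The proteasome is the protease that degrades proteins tagged with ubiquitin. Its 20S core is a barrel of alpha rings, which form the gate, and beta rings, which hold the catalytic sites. The 19S cap recognises and unfolds substrates: its base holds the ATPases and its lid holds the deubiquitinase. Dedicated chaperones build the core and the base and then leave. When the proteasome is inhibited, the transcription factor NRF1 (gene Nfe2l1) is known to raise most subunit genes together through antioxidant response elements in their promoters.

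The cells were mouse embryonic fibroblasts, a primary connective tissue cell type, of a Balb/c background. All groups grew in medium with foetal serum and uridine, a nucleoside that lets cells without a working respiratory chain divide. Actinonin, a hydroxamate antibiotic that inhibits peptide deformylase, was given at 150 µM for 6, 24, 48 or 72 h, and the carrier group received ethanol at 3 µl/ml. Each of the 5 groups had 4 independent samples, 2 with the dye Cy3 and 2 with Cy5, and each sample pooled RNA from 4 plates. The labels put the carrier at 0 h without saying when it was harvested, so time in culture and actinonin cannot be told apart. They do not say whether the samples came from separate embryos, so the p-values cover only sample-to-sample spread, which may be technical.

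The 20 samples lay in pairs on 10 arrays. Slide 1 held 2 arrays, with 2 carrier and 2 of the 6 h samples, and slide 2 held 8 arrays. Values are log2 intensities with the fitted dye and slide terms removed, and a change is called at an adjusted p under 0.05 (limma, Benjamini-Hochberg over 24179 genes and transcripts). For the 45 tested genes the slide term had a median of -0.17 (slide 1 minus slide 2) and was called for 29. Between 50.8% and 58.7% of spots were well above background on 9 arrays, but 66.4% and 70.5% on array 10, which held a carrier and a 48 h sample. No reading of the 67 spots of these genes was marked saturated (0 of 1340). All 12 fibroblast markers were well above background in all 20 samples. So were 4 of 8 markers of macrophages and leukocytes (Csf1r, Itgam, Cd14 and Fcer1g), 2 of 6 endothelial (Pecam1 and Kdr), 2 of 6 epithelial (Krt19 and Krt14), 3 of 5 neural (Tubb3, Map2 and Nes) and 0 of 4 muscle markers. Ptprc, Cdh5, Krt8, Sox2 and Myog, 1 from each of these 5 lists, were so in 0 of 20. The summed log2 level of a list was taken without removing the dye and slide terms. For the leukocyte list it was 14.94 to 15.50 in the carrier and 15.09 to 15.23 at 72 h. For the epithelial list it was 10.13 to 10.61 in the carrier and 10.96 to 11.14 at 48 h. The carrier ranges span both slides, while the 48 and 72 h samples all lay on slide 2, so these ranges are not directly comparable. Of the 12 fibroblast markers 4, 9, 10 and 8 fell at 6, 24, 48 and 72 h, and 1 rose at 72 h. At these times 11.1%, 19.1%, 20.3% and 22.5% of all genes and transcripts fell. Falls were 0, 3, 2 and 2 of 6 tested leukocyte markers. They were 0, 2, 0 and 1 of 2 endothelial and 0, 2, 0 and 2 of 4 neural markers. Of 2 epithelial markers 1 fell at 6 and at 24 h, and 1 rose at 48 and at 72 h. The part of any of these lists in the results below was not tested. In bulk RNA, fewer cells of a type and less RNA per cell cannot be told apart.

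The subunit genes of the core and cap fell by 24 h and were lower still at 48 and 72 h, by small amounts. Of the 31 constitutive core and cap genes, 1 rose and 16 fell at 24 h, 1 rose and 27 fell at 48 h, and 1 rose and 25 fell at 72 h. The median log2 change of these genes was -0.16, -0.25 and -0.27. On the linear scale the last of these is a level that dropped by 16.99%. At 6 h only 4 rose and 1 fell, with a median of 0.03. Over all tested genes of the rule, 8 rose and 1 fell of 45 at 6 h (24.8% of all genes and transcripts tested were called, 13.7% up and 11.1% down). At 24 h 6 rose and 19 fell (40.3% called, 21.2% up and 19.1% down), and at 48 h 4 rose and 30 fell (41.8% called, 21.5% up and 20.3% down). At 72 h 7 rose and 29 fell (47.8% called, 25.2% up and 22.5% down). The median log2 change of all genes and transcripts lay within 0.01 of 0 at every time. The 4 comparisons share the carrier samples. With no slide term, 6, 22 and 16 fell at 24, 48 and 72 h, and without scaling between arrays 6 fell at 24 h and 15 at 72 h, so that the counts at 24 and 72 h depend on both steps. The 6 h change differed between the slides for 0 of 45 genes, also at an unadjusted p under 0.05 (0.029% of all called, limma interaction). Within slide 2 alone, where 2 carriers remain, 19, 31 and 29 fell.

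**Figure D1:**
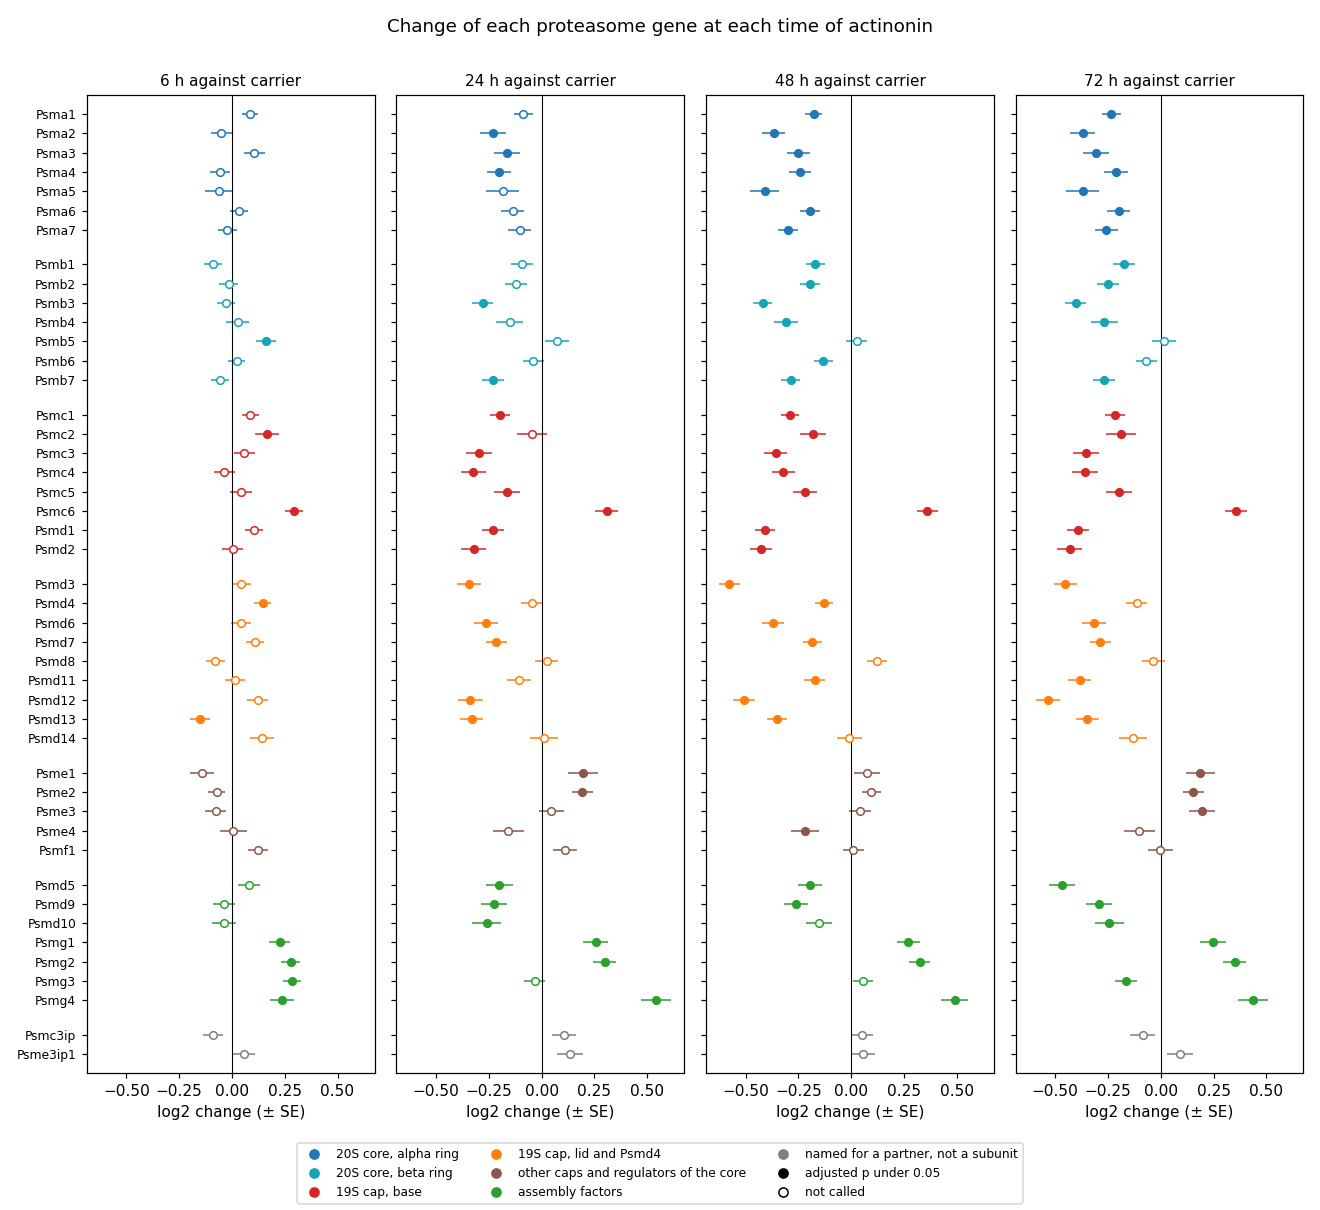
The log2 change against carrier (x axis, with its standard error) is plotted for each of the 45 tested genes (y axis, grouped and coloured by role) at 6, 24, 48 and 72 h, and filled points have an adjusted p under 0.05. At 48 h 30 genes lie left of 0 as filled points, while Psmc6, Psmg1, Psmg2 and Psmg4 lie right of 0 at all 4 times.

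Many of the genes were called at several of the later times. The comparisons of 24, 48 and 72 h share the carrier samples and the slide term. The share of all genes and transcripts called at several times was not counted. Of the 45 genes 18 fell at each of 24, 48 and 72 h, 16 of them core or cap subunits, and 27 fell at both 48 and 72 h. For 13 of those 27 the estimate was lower at 48 h than at 72 h. Psmc6, Psmg1, Psmg2 and Psmg4 rose at all 4 times. Only Psmd8, Psmd14, Psmf1, Psmc3ip and Psme3ip1 were called at no time against the carrier. In the F test over the 5 groups 44 of 45 were called, against 59.5% of all genes and transcripts, with Psme3ip1 the exception. The values of 4 treated samples all lay below those of the 4 carriers for 1 gene at 6 h, 24 at 24 h, 28 at 48 h and 31 at 72 h. Over all genes and transcripts these shares were 10.2%, 20.8%, 18.4% and 23.7%. All 4 treated samples lay above the carriers for 10, 7, 5 and 7 genes, against 12.7%, 23.4%, 19.4% and 26.2% overall. These counts, and the overlaps of samples given below, use values with the fitted slide term removed, which shifts the carriers of slide 1.

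The largest step down was that from 6 to 24 h. From 6 to 24 h 24 genes fell and 4 rose (32.9% of all called, 16.4% down and 16.5% up), a comparison that uses no carrier sample except through the dye, slide and spread terms. The largest fall was that of Psmd12, by 0.46 ± 0.06 on the log2 scale (± standard error here and for all changes; adjusted p = 9.73e-06). Psme1, Psme2, Psmg4 and Psmc3ip were the 4 that rose. From 24 to 48 h 5 fell and 0 rose (12.1% called, 6.36% down and 5.76% up): Psmd3, Psma5, Psma7, Psmd1 and Psmd12. From 48 to 72 h Psmd5, Psmg3, Psmd11 and Psmd8 fell and Psme3 rose (23.2% called, 10.3% down and 12.9% up). The count of 28 called from 6 to 24 h was 13 with no slide term and 13 without scaling between arrays (21.8% and 18.3% of all). That of 5 from 24 to 48 h was 0 with either, where 3.48% and 1.41% of all were called, and 1 without the 24 h sample 2_Cy3.

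The medians of the core and of the cap were below the carrier from 24 h on, and that of the cap was slightly above it at 6 h. The median of the 14 core genes relative to each gene's carrier mean was between -0.04 and 0.04 in the 4 carrier samples. In the treated samples it was -0.03 to 0.06 at 6 h, -0.18 to -0.10 at 24 h, -0.26 to -0.22 at 48 h and -0.27 to -0.22 at 72 h. For the 17 cap genes the carriers were at -0.04 to 0.03. Their treated samples were at 0.04 to 0.10 at 6 h, -0.24 to -0.19 at 24 h, -0.32 to -0.25 at 48 h and -0.34 to -0.26 at 72 h. From 24 h on, no treated sample overlapped a carrier sample in either median, and at 6 h that was so for the cap only.

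**Figure D2:**
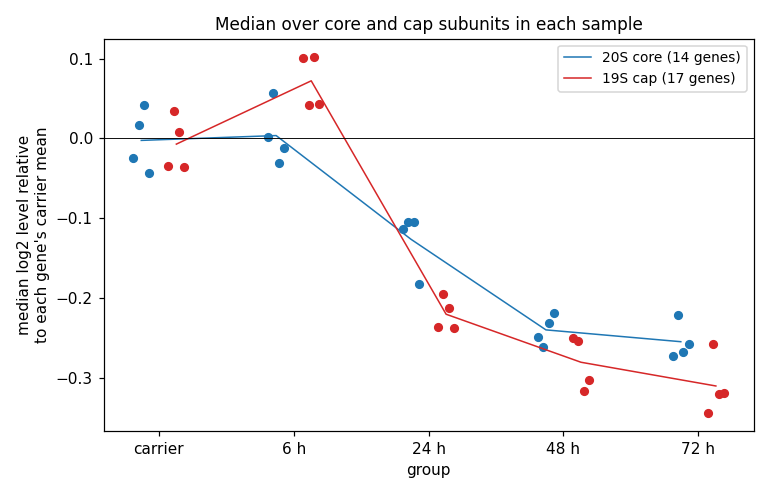
Each point is 1 sample: the median over 14 core genes (blue) or 17 cap genes (red) of the log2 level relative to each gene's carrier mean (y axis), by group (x axis), with lines through the group means. All samples of 24, 48 and 72 h lie below all carrier samples, and the core median of 48 h lies between -0.26 and -0.22.

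All 7 genes of the alpha ring, whose subunits form the gate of the core, fell at 48 and at 72 h, and 3 fell at 24 h. The shares of all genes and transcripts that fell at 24, 48 and 72 h were 19.1%, 20.3% and 22.5%. Psma2 had 15.78, 15.85, 15.90 and 15.75 in the carrier samples (in the order 1_Cy3, 1_Cy5, 2_Cy3, 2_Cy5, as throughout). It had 15.80, 15.90, 15.65 and 15.72 at 6 h, and 15.60, 15.58, 15.61 and 15.57 at 24 h. At 48 h the values were 15.49, 15.42, 15.47 and 15.43, and at 72 h 15.41, 15.48, 15.44 and 15.47. The 6 h samples overlapped the carriers, and every later sample lay below all of them. The change of Psma2 was -0.37 ± 0.05 at 48 h (adjusted p = 2.14e-05) and -0.37 ± 0.06 at 72 h (adjusted p = 6.04e-05). Psma1 had 14.06, 14.08, 14.17 and 14.04 in the carrier, 14.12, 14.19, 14.19 and 14.18 at 6 h, and 14.01, 14.02, 13.999 and 13.97 at 24 h. It had 13.87, 13.93, 13.93 and 13.91 at 48 h and 13.87, 13.86, 13.82 and 13.85 at 72 h. Its 24 h samples lay below all carriers, yet the change of -0.09 ± 0.04 was not called (adjusted p = 0.135). It fell by 0.18 ± 0.04 at 48 h, a call that was lost without both samples of array 10 (adjusted p = 0.068), and by 0.24 ± 0.04 at 72 h. The largest fall in the ring was that of Psma5 at 48 h, by 0.41 ± 0.07 (adjusted p = 0.0001).

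Of the 7 genes of the beta ring, 1 rose at 6 h, which is near the share of all genes and transcripts (13.7%). Then 2 fell at 24 h (19.1% of all), 6 fell at 48 h (20.3%) and 5 fell at 72 h (22.5%). Psmb3, a structural beta subunit, had 15.59, 15.51, 15.57 and 15.50 in the carrier and 15.51, 15.48, 15.53 and 15.53 at 6 h. It had 15.23, 15.24, 15.36 and 15.22 at 24 h, 15.11, 15.17, 15.05 and 15.14 at 48 h, and 15.08, 15.15, 15.13 and 15.20 at 72 h. From 24 h on every sample lay below all carriers, and the change at 48 h was -0.42 ± 0.05 (adjusted p = 5.91e-07). Psmb7, which carries the trypsin-like site, had 13.51, 13.47, 13.43 and 13.59 in the carrier and 13.39, 13.38, 13.50 and 13.45 at 6 h. It had 13.30, 13.23, 13.28 and 13.24 at 24 h, 13.26, 13.19, 13.15 and 13.23 at 48 h, and 13.18, 13.23, 13.25 and 13.24 at 72 h. Again the 6 h samples overlapped the carriers and the later ones did not. It fell by 0.29 ± 0.05 at 48 h (adjusted p = 5.04e-05).

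Of the other catalytic subunits, Psmb6, which carries the caspase-like site, fell only at 48 h, by 0.13 ± 0.04 (adjusted p = 0.0207). Psmb5, which carries the chymotrypsin-like site and binds most proteasome inhibitor drugs, was the member called against its ring at 6 h. It had 15.76, 15.80, 15.82 and 15.66 in the carrier, 15.99, 15.85, 15.96 and 15.90 at 6 h and 15.81, 15.83, 15.88 and 15.83 at 24 h. It had 15.77, 15.89, 15.69 and 15.81 at 48 h and 15.76, 15.83, 15.73 and 15.78 at 72 h. Its 4 samples of 6 h lay above the carriers (0.16 ± 0.05, adjusted p = 0.017), and those of 48 and 72 h overlapped them. The second probe of Psmb5 changed by 0.01 ± 0.05 at 6 h, and with the mean over both probes the call was lost (adjusted p = 0.128). It was also lost without the 6 h sample 1_Cy3, without the 6 h sample 2_Cy3 and without the carrier sample 2_Cy5.

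The base of the cap holds the ATPases Psmc1 to Psmc6, which unfold substrates, and the scaffold subunits Psmd1 and Psmd2. Of these 8 genes 2 rose at 6 h (13.7% of all genes and transcripts rose). Then 1 rose and 6 fell at 24 h (21.2% and 19.1% of all). At 48 and at 72 h 1 rose and 7 fell (21.5% and 25.2% of all rose, 20.3% and 22.5% fell). Psmd2 had 14.95, 14.92, 14.86 and 15.02 in the carrier, 14.94, 14.88, 15.02 and 14.95 at 6 h and 14.59, 14.66, 14.56 and 14.66 at 24 h. It had 14.57, 14.57, 14.51 and 14.39 at 48 h and 14.54, 14.57, 14.50 and 14.43 at 72 h. The carrier and 6 h samples were alike, and all later samples were below both, by 0.43 ± 0.05 at 48 h (adjusted p = 2.29e-06). Before the dye and slide terms were removed, the carriers spanned 14.28 to 14.94 and the 72 h samples 14.35 to 14.62, which overlap. With no slide term the 72 h call of Psmd2 was lost (adjusted p = 0.205). Psmd1 had 14.76, 14.90, 14.89 and 14.78 in the carrier, 14.96, 14.87, 14.99 and 14.90 at 6 h and 14.59, 14.64, 14.61 and 14.56 at 24 h. It had 14.46, 14.47, 14.35 and 14.41 at 48 h and 14.44, 14.49, 14.39 and 14.42 at 72 h. Its 6 h samples overlapped the carriers, and all later ones lay below them, by 0.41 ± 0.05 at 48 h (adjusted p = 1.28e-06). Of the ATPases, Psmc4 fell by 0.32 ± 0.06 and Psmc3 by 0.30 ± 0.06 at 24 h.

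The ATPase gene Psmc6 ran against its complex: it was the only core or cap gene that rose at 24, 48 or 72 h. Its samples, given because of that direction, were 12.74, 12.82, 12.79 and 12.64 in the carrier. They were 13.10, 13.01, 13.02 and 13.07 at 6 h, 13.06, 13.10, 13.02 and 13.06 at 24 h, 13.06, 13.06, 13.17 and 13.16 at 48 h, and 13.12, 13.16, 13.08 and 13.06 at 72 h. All 16 treated samples lay above all 4 carriers. The change was 0.29 ± 0.04 at 6 h (adjusted p = 9.00e-05), 0.31 ± 0.05 at 24 h (adjusted p = 0.000165), and 0.36 ± 0.05 at 48 h (adjusted p = 6.73e-06) and at 72 h (adjusted p = 2.57e-05), the last 1.28-fold above the carrier. At 6 h the rise was 0.23 on slide 1 and 0.37 on slide 2. Psmc6 had 1 probe, so that no second probe bears on it. Psmc2, the other base gene that rose at 6 h (0.17 ± 0.06, adjusted p = 0.0461), lost that call under 22 of 37 alternative settings, 15 of them with 1 sample left out, and fell by 0.18 ± 0.06 at 48 h.

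The lid, with the deubiquitinase Psmd14 and, listed with it, the ubiquitin receptor Psmd4, held the largest falls. Of 9 genes, 1 rose and 1 fell at 6 h, near the shares of all genes and transcripts (13.7% and 11.1%). At 24, 48 and 72 h 5, 7 and 6 fell (19.1%, 20.3% and 22.5% of all) with none rising. Psmd3 had 15.46, 15.64, 15.57 and 15.50 in the carrier, 15.67, 15.59, 15.58 and 15.53 at 6 h and 15.26, 15.21, 15.19 and 15.15 at 24 h. It had 14.94, 15.005, 14.97 and 14.97 at 48 h and 15.16, 15.14, 15.02 and 15.06 at 72 h. The 48 h samples were the lowest, below those of every other time. Psmd3 fell by 0.58 ± 0.05 at 48 h (adjusted p = 3.20e-08), which is 1.49-fold lower than the carrier. Psmd12 had 14.71, 14.84, 14.88 and 14.70 in the carrier, 14.95, 14.93, 14.90 and 14.84 at 6 h and 14.46, 14.46, 14.43 and 14.42 at 24 h. It had 14.27, 14.32, 14.25 and 14.25 at 48 h and 14.16, 14.34, 14.29 and 14.20 at 72 h. Its later samples all lay below the carriers, by 0.51 ± 0.05 at 48 h (adjusted p = 3.41e-07) and 0.53 ± 0.06 at 72 h (adjusted p = 6.79e-07), and its second probe fell by 0.52 ± 0.05 and 0.57 ± 0.05.

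Other lid genes differed in timing. Psmd13 fell already at 6 h, by 0.15 ± 0.05 (adjusted p = 0.0203), and by 0.33 ± 0.05 at 24 h. Psmd4 rose by 0.15 ± 0.04 at 6 h (adjusted p = 0.0127) and fell by 0.13 ± 0.04 at 48 h. Psmd11 fell by 0.17 ± 0.05 at 48 h and by 0.38 ± 0.06 at 72 h. Psmd14, the deubiquitinase, was at 0.14 ± 0.05 at 6 h (adjusted p = 0.0678) and -0.13 ± 0.07 at 72 h (adjusted p = 0.106), and Psmd8 at 0.12 ± 0.05 at 48 h (adjusted p = 0.0537). The early call of Psmd13 was lost without the carrier sample 1_Cy3 (adjusted p = 0.113), without the carrier sample 2_Cy5 (adjusted p = 0.074) and without the 6 h sample 1_Cy5 (adjusted p = 0.107).

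**Figure D3:**
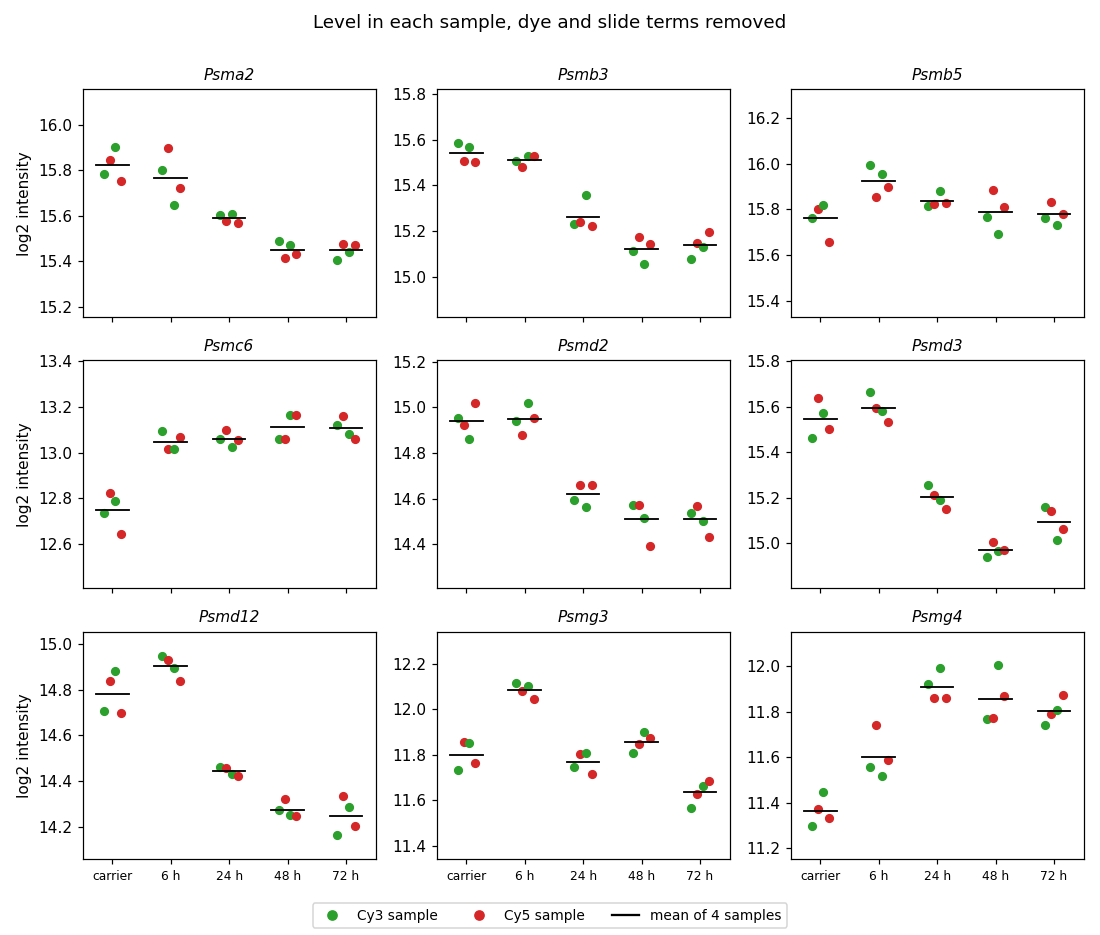
Each point is the log2 intensity of 1 sample (y axis, dye and slide terms removed, each panel spanning 1 log2 unit) by group (x axis) for 9 genes, coloured by dye, with a bar at the mean of 4 samples. Psma2, Psmb3, Psmd2, Psmd3 and Psmd12 step down at 24 h, Psmc6 and Psmg4 lie above the carrier at every time, and Psmg3 is high only at 6 h.

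The assembly factors changed in both directions. Psmg1 to Psmg4 are chaperones of the core's alpha ring, working as the pairs Psmg1 with Psmg2 and Psmg3 with Psmg4, and all of them rose at 6 h. The 6 h calls of Psmg1 and Psmg4 were lost in a fit of only the 2 groups (adjusted p = 0.073 and 0.068), that of Psmg1 with no dye term (adjusted p = 0.054) and that of Psmg4 within slide 2 (adjusted p = 0.141). Psmd5, Psmd9 and Psmd10 are chaperones of the cap's base, and all of them fell at 72 h, as did Psmg3. Of the 7 assembly factors 4 rose and 0 fell at 6 h (13.7% and 11.1% of all genes and transcripts). At 24 h 3 rose and 3 fell (21.2% and 19.1% of all). At 48 h 3 rose and 2 fell (21.5% and 20.3%), and the 2 of 7 are near that share. At 72 h 3 rose and 4 fell (25.2% and 22.5%). Psmg1 rose by 0.23 ± 0.05, 0.26 ± 0.06, 0.27 ± 0.05 and 0.25 ± 0.06 at 6, 24, 48 and 72 h, and its second probe by 0.20 ± 0.04, 0.26 ± 0.05, 0.28 ± 0.04 and 0.22 ± 0.05. Psmg2 rose by 0.28 ± 0.05, 0.30 ± 0.06, 0.32 ± 0.05 and 0.35 ± 0.06. The changes of this pair were close to each other and steady from 6 h on.

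The other pair parted after 6 h. Psmg4, given by sample for its size, had 11.30, 11.37, 11.45 and 11.33 in the carrier and 11.56, 11.74, 11.52 and 11.59 at 6 h. It had 11.92, 11.86, 11.99 and 11.86 at 24 h, 11.77, 11.77, 12.01 and 11.87 at 48 h and 11.74, 11.79, 11.81 and 11.87 at 72 h. All treated samples lay above the carriers, and the 24 h rise of 0.54 ± 0.07 (adjusted p = 7.84e-06), 1.46-fold, was the largest rise of any gene of the rule. Psmg3 had 11.73, 11.86, 11.85 and 11.76 in the carrier, 12.12, 12.08, 12.10 and 12.04 at 6 h and 11.75, 11.80, 11.81 and 11.71 at 24 h. It had 11.81, 11.85, 11.90 and 11.88 at 48 h and 11.57, 11.63, 11.67 and 11.69 at 72 h. It was high only at 6 h (0.28 ± 0.04, adjusted p = 7.98e-05), overlapped the carriers at 24 and 48 h and lay below them at 72 h (-0.16 ± 0.05, adjusted p = 0.0127). From 6 to 24 h Psmg3 fell by 0.32 ± 0.05 (adjusted p = 0.000114) while Psmg4 rose by 0.31 ± 0.07 (adjusted p = 0.00254). Of the base chaperones, Psmd5 fell by 0.20 ± 0.06 at 24 and at 48 h and by 0.47 ± 0.06 at 72 h (adjusted p = 6.41e-06). Psmd9 fell by 0.26 ± 0.06 at 48 h. The call of Psmg3 at 72 h was lost without the carrier sample 2_Cy3 (adjusted p = 0.077), and that of Psmd5 at 48 h without the carrier sample 2_Cy5 (adjusted p = 0.112).

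Of the alternative cap genes, Psme1 and Psme2 rose at 24 and 72 h, Psme3 rose at 72 h, and Psme4 fell at 48 h. Psme1 and Psme2 form the interferon-inducible PA28 activator of the core, Psme3 its nuclear form and Psme4 the PA200 activator, and Psmf1 is a core inhibitor. Of these 5 genes 0 were called at 6 h, 2 rose at 24 h, 1 fell at 48 h and 3 rose at 72 h, and Psmf1 was called at no time. Over all genes and transcripts 24.8%, 40.3%, 41.8% and 47.8% were called at these times, so the 2 of 5 at 24 h are near that share. Their difference from the 19S genes was not tested. Psme2 had 14.24, 14.29, 14.32 and 14.21 in the carrier, 14.22, 14.27, 14.13 and 14.17 at 6 h and 14.48, 14.46, 14.48 and 14.43 at 24 h. It had 14.29, 14.38, 14.39 and 14.39 at 48 h and 14.46, 14.37, 14.41 and 14.44 at 72 h. The 24 and 72 h samples lay above all carriers, and those of 48 h overlapped them. The change was 0.19 ± 0.05 at 24 h (adjusted p = 0.00482) and 0.15 ± 0.05 at 72 h (adjusted p = 0.0166, but 0.088 without the carrier sample 2_Cy5). Both calls of Psme2 were lost with no slide term (adjusted p = 0.140 and 0.289) and without scaling between arrays (adjusted p = 0.086 and 0.136). The second probe of Psme2 changed by 0.12 ± 0.06 at 24 and at 72 h, not called (adjusted p = 0.111 and 0.105). At 6 h that probe fell by 0.16 ± 0.05 (adjusted p = 0.019). Psme1 rose by 0.20 ± 0.07 at 24 h (adjusted p = 0.0329) and 0.19 ± 0.07 at 72 h (adjusted p = 0.0342). Both calls of Psme1 were lost without the pair of samples on array 10 (adjusted p = 0.235 and 0.248) and without the carrier sample 2_Cy3 alone. Leaving out single samples ended the call of Psme1 in 4 of 20 cases at 24 h and in 6 of 20 at 72 h. Psme2 has a near-identical copy, Psme2b, whose signal its probes may share. Psme3 rose by 0.19 ± 0.06 at 72 h, and Psme4 fell by 0.22 ± 0.07 at 48 h, a call that was lost without array 10 (adjusted p = 0.299), without either of 2 of the 48 h samples (1_Cy3 and 2_Cy5) and without the carrier sample 2_Cy3.

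The genes named for a partner were called at no time against the carrier, as was also so for Psmd8, Psmd14 and Psmf1. Psmc3ip, a recombination factor, had 10.79, 10.7025, 10.72 and 10.65 in the carrier, 10.68, 10.63, 10.58 and 10.65 at 6 h and 10.85, 10.88, 10.81 and 10.76 at 24 h. It had 10.66, 10.72, 10.88 and 10.83 at 48 h and 10.62, 10.69, 10.57 and 10.65 at 72 h. Every treated group overlapped the carriers, and no change against the carrier was called. Psme3ip1 was likewise never called, though its 24 h samples (lowest 11.58) all lay above the carriers (highest 11.53).

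Promoters were read for 39 of the 47 genes as 43 windows of 300 bases, 250 before and 50 after the start, from RefSeq (GRCm38.p6). The core of the antioxidant response element, TGACNNNGC on either strand, was in 6 of 43 windows (13.95%) and in 12.4% of all 32851 windows. It was in those of Psmc6, which rose, of Psmd12, Psmb6, Psmd9 and Psme4, which fell at some time, and of Psmb5. The 250 bases before the start are shown for 3 of these genes, with the element in capitals. Psmc6 rose at all times, Psmd12 fell from 24 h on, and Psmb5 rose only at 6 h. That call of Psmb5 was lost with the mean over both probes.
Psmc6: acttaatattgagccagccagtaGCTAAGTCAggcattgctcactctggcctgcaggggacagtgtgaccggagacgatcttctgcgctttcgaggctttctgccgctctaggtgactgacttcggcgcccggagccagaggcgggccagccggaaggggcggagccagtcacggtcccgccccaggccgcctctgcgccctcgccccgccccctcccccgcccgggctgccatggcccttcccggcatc
Psmd12: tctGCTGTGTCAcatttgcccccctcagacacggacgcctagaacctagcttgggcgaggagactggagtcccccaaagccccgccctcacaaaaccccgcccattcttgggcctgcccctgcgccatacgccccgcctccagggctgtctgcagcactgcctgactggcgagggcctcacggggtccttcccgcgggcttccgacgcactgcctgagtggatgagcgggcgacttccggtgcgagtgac
Psmb5: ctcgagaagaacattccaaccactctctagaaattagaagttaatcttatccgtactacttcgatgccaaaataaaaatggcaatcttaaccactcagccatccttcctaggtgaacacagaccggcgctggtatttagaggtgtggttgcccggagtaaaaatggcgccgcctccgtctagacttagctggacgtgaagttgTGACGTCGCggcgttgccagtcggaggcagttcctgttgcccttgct
These lie at chr14:45329574-45329823 (plus strand), chr11:107479278-107479527 (plus strand) and chr14:54617996-54618245 (minus strand). The element starts 227, 247 and 47 bases before the start of Psmc6, Psmd12 and Psmb5, so that only that of Psmb5 is near the start. The motifs of 5 more factors were counted on both strands. CCAAT was in 15 windows (34.9%, 37.4% of all), the ATF4 site TTGCATCA in 1 (2.33%, 0.895% of all), the heat shock element core GAANNTTC in 2 (4.65%, 7.86% of all) and the site of nuclear respiratory factor 1, a factor other than the product of Nfe2l1, in 2 (4.65%, 0.971% of all). CCGGAAG, a site of ETS factors, was in 17 windows (39.5%, 8.86% of all), among them those of Psmc6, Psmd12, Psmd2 and Psmg1. The windows of these genes had a median GC content of 59% against 52.7% for all windows. A match is a description of the letters only.

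The immunoproteasome genes Psmb8, Psmb9 and Psmb10, which the rule leaves out, encode catalytic subunits that take the places of Psmb5, Psmb6 and Psmb7 after interferon. They were called up at 24 h, 3 of 3, and 2 of 3 at 48 and at 72 h, where 21.2%, 21.5% and 25.2% of all genes and transcripts rose. Psmb8 had 8.65, 8.51, 8.60 and 8.45 in the carrier and 9.52, 9.51, 9.29 and 9.26 at 72 h, without overlap, a rise of 0.83 ± 0.09 (adjusted p = 4.54e-07). Psmb9 rose by 0.64 ± 0.09 at 72 h, and Psmb10 by 0.23 ± 0.06 at 24 h only. The change of each immunoproteasome gene was compared with that of its counterpart by permutation of 4 against 4 samples (two-sided, smallest possible p = 0.0286, 12 comparisons). The fitted slide term had been removed, which shifts the carriers of slide 1 but no sample of 24, 48 or 72 h. Carriers also shared arrays with 6 h and 48 h samples, which the permutation ignored. Its p-values are therefore approximate. Psmb8 exceeded Psmb5 by 0.48, 0.37 and 0.82 at 24, 48 and 72 h, Psmb9 exceeded Psmb6 by 0.53, 0.44 and 0.71, and Psmb10 exceeded Psmb7 by 0.47, 0.42 and 0.32. Each of these 9 differences had the smallest possible permutation p (0.0381 after Benjamini-Hochberg over the 12), with no overlap of the samples. At 6 h the differences were -0.19 (permutation p = 0.171), -0.02 (permutation p = 0.857) and 0.08 (permutation p = 0.171).

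**Figure D4:**
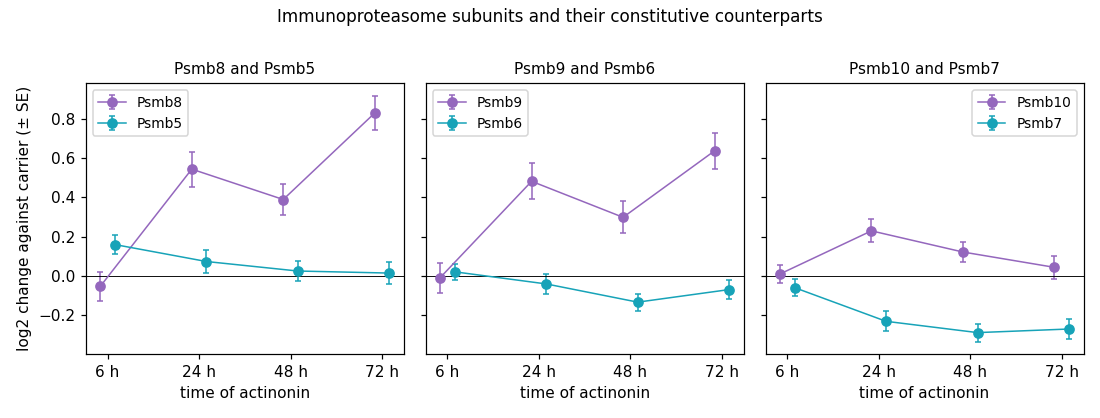
The log2 change against carrier (y axis, ± standard error) is plotted by time (x axis) for each immunoproteasome gene (purple) and the constitutive gene whose place its product takes (cyan). From 24 h on each purple point lies above its cyan counterpart, with Psmb8 at 0.83 and Psmb5 at 0.02 at 72 h.

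Partners of the proteasome outside the rule moved in both directions. Of 10 tested partners 5 rose and 3 fell at 6 h, 2 rose and 4 fell at 24 h, 1 rose and 6 fell at 48 h, and 3 rose and 6 fell at 72 h. Over all genes and transcripts 13.7%, 21.2%, 21.5% and 25.2% rose and 11.1%, 19.1%, 20.3% and 22.5% fell at these times. The 2 of 10 that rose at 24 h are near that share. The ubiquitin receptor gene Adrm1 rose by 0.21 ± 0.05 at 6 h and fell by 0.32 ± 0.05 at 48 h. The nuclear import factor gene Ipo9 fell by 0.24 ± 0.04 at 6 h and by 0.50 ± 0.05 at 48 h (adjusted p = 1.00e-07). The thioredoxin-like cap partner Txnl1 fell by 0.28 ± 0.04 at 6 h and rose by 0.18 ± 0.05 at 72 h. Pomp, the chaperone of the beta ring, is named here after its values were seen, because its direction at 6 h was opposite to that of Psmg1 to Psmg4. It had 13.95, 14.04, 14.13 and 13.95 in the carrier and 13.81, 13.88, 13.72 and 13.71 at 6 h, all below the carriers. It fell by 0.23 ± 0.05 at 6 h (adjusted p = 0.00343) and by 0.56 ± 0.06 at 72 h (adjusted p = 1.25e-06).

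Of 8 tested genes of the NRF1 route, 4 rose and 0 fell at 6 h, 4 rose and 1 fell at 24 h, 3 rose and 0 fell at 48 h, and 3 rose and 1 fell at 72 h. Over all genes 13.7%, 21.2%, 21.5% and 25.2% rose at these times, so the 3 of 8 at 48 and 72 h are near that share. Mafg, which encodes a small MAF partner of NRF1 and NRF2, rose by 0.44 ± 0.05, 0.67 ± 0.07, 0.61 ± 0.06 and 0.63 ± 0.07 over the 4 times. Nfe2l2, which encodes NRF2, rose by 0.41 ± 0.05 at 6 h (adjusted p = 3.75e-06), and Nfe2l3 by 0.33 ± 0.06 at 72 h. Nfe2l1 itself, added to the 3 named by rule because it encodes NRF1, had 9.003, 8.84, 8.91 and 8.86 in the carrier and 9.50, 9.38, 9.39 and 9.34 at 6 h. The groups did not overlap, and the rise was 0.48 ± 0.07 at 6 h (adjusted p = 9.84e-05), 0.39 ± 0.09 at 24 h, 0.27 ± 0.08 at 48 h and 0.47 ± 0.09 at 72 h. NRF1 is controlled mainly after translation, and its mRNA level does not measure its activity.

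Upstream of the proteasome, of 6 genes of ubiquitin and its activation 0 rose and 1 fell at 6 h, 2 rose at 24 h and 3 rose at 48 and at 72 h. Uba6, an activating enzyme, rose by 0.57 ± 0.07 at 48 h, and the polyubiquitin gene Ubb fell by 0.28 ± 0.07 at 6 h. Of 11 shuttle and p97 genes 2 rose and 2 fell at 6 h, 2 rose and 4 fell at 24 h, 1 rose and 4 fell at 48 h, and 2 rose and 7 fell at 72 h. Over all genes and transcripts 13.7%, 21.2%, 21.5% and 25.2% rose and 11.1%, 19.1%, 20.3% and 22.5% fell at these times. The 2 of 11 that rose at 6 and at 24 h are near these shares. Vcp, which encodes the p97 unfoldase, fell by 0.60 ± 0.05 at 48 h (adjusted p = 4.36e-08), its cofactor gene Nploc4 by 0.37 ± 0.05 and the shuttle factor gene Ubqln2 by 0.58 ± 0.05. Another large cytosolic complex, the chaperonin CCT, served as a comparison. Of its 8 genes 1 rose at each time, and 1 fell at 24 and at 48 h, with median changes of 0.07, -0.05, -0.07 and -0.11. The 1 of 8 that rose at 6 h is near the share of all genes. Cct4 was the one that rose (0.20 ± 0.05 at 6 h), Cct7 the one that fell (-0.25 ± 0.06 at 48 h), and Cct2 was at -0.21 ± 0.10 at 48 h (adjusted p = 0.117).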

How the data were processed

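Expression was measured on Agilent two-colour arrays, 1 sample per channel. Per the file headers, each spot has a deposited intensity (median over its pixels) and a local background. Slide 1 was read with Feature Extraction 10.7.3.1 and slide 2 with 11.0.1.1, which makes slide, scan and software inseparable. Log2 values from the authors' deposited matrix served as an alternative. R 2.15 and limma are named in the submitters' processing notes.

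In R 4.3.3 with limma 3.58.1, background was corrected by normexp with an offset of 50, followed by loess within arrays and Aquantile between arrays. Probes were kept if 4 or more of the 20 samples had them well above background. The brightest probe stood for its gene, named through RefSeq (21465 of 22765 accessions matched). The fit had group, dye and slide terms and the array as a random block (correlation 0.25). It was also run on simulated data with noise drawn from the fitted model and changes at 48 h only. That run left out the normalization, so it does not bear on that step. In a fit of all probes, 2, 8, 8 and 9 of 11 genes with 2 probes were called at 6, 24, 48 and 72 h. The second probe had the same sign in each and was itself called in 1, 5, 7 and 7.

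Named per time were the 6 largest called rises and 6 largest falls, and members called against their role list. Values by sample are given for the smallest F per role list, 2 for the rings, base and lid and 1 for the others. Psmc6, Psmg4 and Psmb5 were added for their direction or size. Other lists give up to 3 genes by F, and 1 gene so chosen is not reported here. The members and lists were chosen with earlier results of these data known. Samples with the same replicate label had a median r of 0.14 between their deviations (between -0.51 and 0.76). Those with another label but the same dye had a median of 0.15, and those with the other dye -0.15. The deviations still held the dye and slide effects, and the label includes the dye. The check could therefore not decide on a pairing, and none was used. The number of arrays limits the precision.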

Additional observations from a re-analysis of the deposited data

Results flagged for a closer look

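Among the 14 genes given by sample, 70 groups of 4 samples were examined for a sample that stood far from the other 3, and 3 were found. Chance flags about 1 group in 20. Psma1 was lower in the 6 h sample 1_Cy3 (14.12) than in the other 6 h samples (14.18 to 14.19). Psmb3 was higher in the 24 h sample 2_Cy3 (15.36) than in the others (15.22 to 15.24). Psme2 was lower in the 48 h sample 1_Cy3 (14.29) than in the others (14.38 to 14.39). The change of Psmb3 at 24 h was -0.28 with that sample and -0.31 without it. The 6 h change differed between the slides for 0 of the 45 genes (limma interaction, 0 also at an unadjusted p under 0.05), against 7 of all 24179 genes and transcripts (1133 unadjusted).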

How the results depend on the processing

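The 57 gene and time pairs named by rule kept their direction under all 37 alternatives (17 planned settings and 20 that leave out 1 sample). These pairs were chosen because they were called in the main fit of the same data. The setting at an adjusted p under 0.01 reuses that fit, so its directions could not change. Kept directions are therefore no independent test. The call was lost in 102 of 2109 combinations of pair and setting, most often for Psmc2 at 6 h (22 of 37), Psme1 at 72 h (12) and Psme1 at 24 h (9). With no slide term the 24 h calls of Psma2, Psmb7, Psmd1, Psmd2, Psmd3 and Psmd12 were lost (adjusted p = 0.09 to 0.609). The cause was not tested. The median change of the genes kept its sign at 6, 24, 48 and 72 h against carrier (0.02 to 0.06, -0.15 to -0.05, -0.20 to -0.14 and -0.24 to -0.14).

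Counts within 1.5 times of those reported are not repeated. Genes called up at 6 h (8) were 4 with no dye term, 3 in a fit of only the 2 groups and 5 at an adjusted p under 0.01. The 1 gene down at 6 h became 0 without scaling between arrays, within slide 2, with no dye term, with only the 2 groups or at 0.01. It became 2 with processed signals, the authors' series matrix, the mean over probes, without array 10 or with the replicate block. Genes down at 24 h (19) were 6 without scaling and 6 with no slide term, and those at 72 h (29) were 15 and 16. Calls over all genes in either direction also went down there, from 40.3% to 25.3% and 28.2% at 24 h and from 47.8% to 34.0% and 37.5% at 72 h. Genes up at 72 h (7) were 4 at 0.01. From 6 to 24 h (28 called) 13 were called without scaling, 13 with no slide term, 17 with only the 2 groups and 18 at 0.01. From 24 to 48 h (5) the counts were 0 without scaling (1.41% of all genes called), with no slide term (3.48%) or with no dye term, 1 with the series matrix or at 0.01, and 2 with processed signals. They were 3 with no filter or without array 10 and 8 within slide 2. From 48 to 72 h (5) they were 0 without scaling or with no slide term, 2 with no dye term, and 3 with no filter, with only the 2 groups or at 0.01.

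Leaving out 1 sample gave 5 to 10 up and 0 to 2 down at 6 h, 5 to 7 up and 17 to 20 down at 24 h, 4 to 5 up and 26 to 31 down at 48 h, and 6 to 7 up and 27 to 30 down at 72 h. The steps had 22 to 29 called (6 to 24 h), 1 to 6 (24 to 48 h) and 3 to 5 (48 to 72 h). The lowest count up at 6 h came without the 6 h sample 1_Cy3. The check of the deviations could not decide whether the shared replicate label marks a pairing. The deviations still held the dye and slide effects, and the label includes the dye. The r was above 0.1 in 29 of 40 pairs with the same label and in 25 of 40 with another label but the same dye. Used as a replicate block, the label gave 9 up and 2 down at 6 h, 6 and 21 at 24 h, 4 and 30 at 48 h, and 7 and 29 at 72 h. Promoter windows with a motif were 5 for the antioxidant response element, 15 for CCAAT, 1 for the ATF4 site, 14 for the ETS site, 2 for the heat shock element and 1 for the nuclear respiratory factor 1 site in the 250 bases before the start only. All 45 tested genes were well above background in all samples, so dim signal limited only Psma8 and Psmb11. Changes of a few hundredths are within the standard errors of 0.04 to 0.08.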
